A study of Caenorhabditis elegans with 6 samples.

Results

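The genes described here were picked by name as sperm genes. They were all genes called msp, spe, fer, ssp, sss or nspd followed by a number, with gsp-3 and gsp-4. This made 82 of the 45132 genes listed. All are called sperm-named here for short, although nspd genes are described as nematode-specific peptides and gsp-3 and gsp-4 as phosphatases. They comprised 31 msp, 25 spe, 12 ssp and 10 nspd genes, gsp-3 and gsp-4, and the single genes fer-1 and sss-1. They were followed in whole Caenorhabditis elegans of the wild-type strain N2, collected as 5-day-old adults after feeding on RNA interference (RNAi) bacteria as larvae and on OP50 bacteria from young adulthood. The 3 control libraries came from worms given L4440, the empty vector, and the 3 vit-5 RNAi libraries from worms given bacteria directed against vit-5, which encodes a yolk protein. The labels give neither an allele or transgene nor whether each replicate was its own culture. P-values here therefore cover only the variation from library to library, which may be technical.

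A hermaphrodite of this species makes a limited stock of sperm late in larval life and then switches its germline to oocytes, so an adult carries stored sperm but no longer forms new ones. The major sperm proteins (MSP) are small proteins that polymerise to drive the crawling of the amoeboid sperm, and they are also released as the signal that triggers oocyte maturation and ovulation. Genes named spe or fer were found through mutants that fail in sperm formation, activation or fertilisation, and some of their products also work in other tissues. The ssp and sss names stand for sperm-specific families, class P and class S, and the nspd name for a nematode-specific peptide family, group D. The genes gsp-3 and gsp-4 encode sperm forms of protein phosphatase 1.

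Values are in FPKM, a unit that divides fragments by gene length and library size, so levels of different genes can be set side by side per length. Sequencing depth was estimated roughly from the steps between low values, at 16800000 to 20800000 fragments per library. On an msp gene model of 384 bases, 1 fragment was then worth about 0.125 to 0.155 FPKM, so values below about 0.1 FPKM stand for less than 1 whole fragment. The targeted gene vit-5 stood at 2335, 1396 and 1573 FPKM in the control libraries and at 116, 51.6 and 22.8 FPKM under vit-5 RNAi. Its log2 fold change on log2(FPKM + 1) was -5.03 (SE 0.50, limma adjusted p 0.0552). Fragments of the near-identical genes vit-3 and vit-4 may be counted with it, so the value is uncertain. Oocyte markers, 20 genes, summed to 13248 to 15790 FPKM in the controls and 8782 to 14272 FPKM under vit-5 RNAi.

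Most of the sperm-named genes were low in all 6 libraries. Of the 82 genes, 11 reached 1 FPKM in at least 3 libraries, the level required for the test, as did 12908 of all 45132 listed genes. The 12 members with equal group means were listed at 0 in every library. Equal group means were found for 22798 of all listed genes. All 82 genes together summed to 149.7 to 229.6 FPKM per library, and ssp-37 alone had a mean of 86.6 FPKM. The 71 untested genes together summed to 5.63, 3.68 and 35.2 FPKM in the control libraries and to 29.3, 4.57 and 6.21 FPKM under vit-5 RNAi. Control replicate 3 and vit-5 RNAi replicate 1 were high, and the groups overlapped. In bulk RNA, fewer sperm or sperm-forming cells and less RNA per cell cannot be told apart.

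The msp genes made up most of the untested sum in those 2 libraries only: the 30 untested ones reached 29.0 FPKM in control replicate 3 and 21.1 FPKM in vit-5 RNAi replicate 1, and 1.32 to 1.72 FPKM in the other 4. With msp-31 included, the summed level of the 31 genes was 6.198, 2.54 and 32.1 FPKM in control replicates 1, 2 and 3 and 24.8, 2.35 and 2.57 FPKM in vit-5 RNAi replicates 1, 2 and 3. The group means were 13.6 ± 16.1 and 9.90 ± 12.9 FPKM (SD, n = 3 each), so the spread within each group exceeded the difference between them. At the rough depths these sums stood for about 49, 20 and 248 fragments in the controls and 181, 15 and 17 after vit-5 RNAi. The means differed by -3.73 FPKM (vit-5 RNAi minus control). Dropping control replicate 3 turned this to 5.53 FPKM, and dropping vit-5 RNAi replicate 1 gave -11.2 FPKM. Dropping vit-5 RNAi replicate 2 gave 0.0468 FPKM, and dropping replicate 3 of that group gave -0.0611 FPKM. With both high libraries dropped, a choice made after the data were seen, the difference was -1.91 FPKM.

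**Figure D1:**
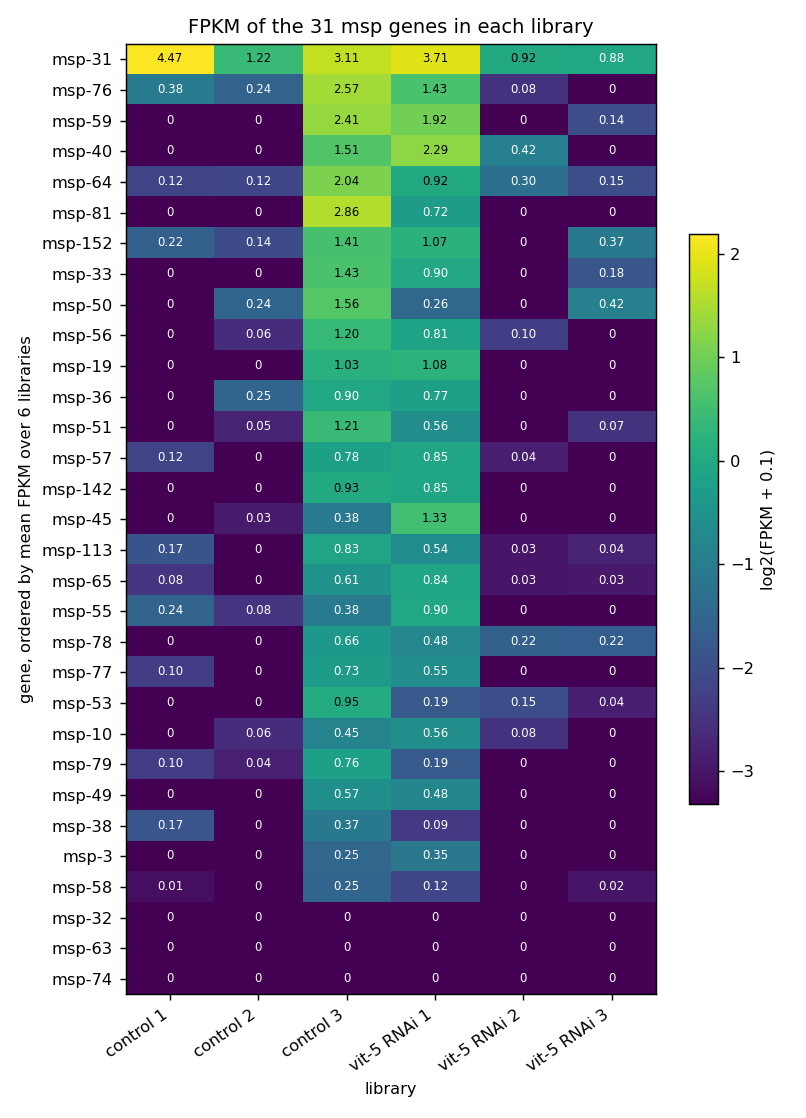
FPKM of each of the 31 msp genes (rows, ordered by mean) in the 6 libraries (columns), with color giving log2(FPKM + 0.1) and the number in each cell the FPKM. Control replicate 3 and vit-5 RNAi replicate 1 hold values above 0 for 28 genes each, against 11 or 12 genes in each other library, and msp-31 at the top differs from the rest.

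The elevation in those 2 libraries ran across the family. A value above 0 was listed for 28 msp genes in control replicate 3 and for 28 in vit-5 RNAi replicate 1, but for only 11 or 12 in each of the other 4 libraries. The median msp gene stood at 0.834 FPKM in control replicate 3 and 0.725 FPKM in vit-5 RNAi replicate 1, and at 0 in the other 4. In 25 of the 31 genes both libraries exceeded all 4 others. Of the 28 genes with any value, 19 were higher in control replicate 3 and 9 in vit-5 RNAi replicate 1. The genes msp-32, msp-63 and msp-74 were listed at 0 in every library.

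The gene msp-59 (WBcel235, IV, 5312728 to 5313111) shows the pattern. It was listed at 0, 0 and 2.41 FPKM in the control libraries and at 1.92, 0 and 0.145 FPKM under vit-5 RNAi. For msp-76 (IV, 9689015 to 9689398) the values were 0.383, 0.236 and 2.57 FPKM in the controls and 1.43, 0.0755 and 0 FPKM under vit-5 RNAi. In both genes control replicate 3 was the highest library and vit-5 RNAi replicate 1 the next. The group means of log2(FPKM + 1) differed by -0.01 for msp-59 and -0.41 for msp-76, with no test.

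Many msp genes encode the same protein, so the files' own protein descriptions were used to group them. These descriptions placed 21 of the 31 genes in 4 shared entries, the largest with 13 genes, and gave 10 genes an entry or generic name of their own. The largest entry, with msp-31, msp-59 and msp-142 among its genes, summed to 4.84, 1.67 and 19.4 FPKM in the controls and to 15.2, 1.84 and 1.78 FPKM under vit-5 RNAi. All 4 shared entries had their highest sums in control replicate 3 and vit-5 RNAi replicate 1. The labels do not say how fragments were divided among near-identical copies, so values of single msp genes are uncertain.

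The msp genes lie on chromosomes II and IV, in 3 regions when neighbours over 1 Mb apart are separated. The region on II (4785898 to 5810330) holds 13 of them, and those on IV (5055631 to 5316906 and 9689015 to 10143740) hold 9 each. The summed level in the first region on IV was 0.620, 0.126 and 8.45 FPKM in the controls and 7.005, 0.237 and 0.355 FPKM under vit-5 RNAi. In the second it was 0.761, 0.651 and 10.5 FPKM in the controls and 5.61, 0.477 and 0.216 FPKM under vit-5 RNAi. On II it was 4.82, 1.76 and 13.2 FPKM in the controls and 12.2, 1.64 and 1.998 FPKM under vit-5 RNAi. Every region was highest in the same 2 libraries.

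Of the 28 msp genes with any value, msp-31, msp-38 and msp-50 did not have those 2 libraries as their highest. The gene msp-38 was highest in control replicates 1 and 3 (0.175 and 0.368 FPKM), and msp-50 in control replicate 3 and vit-5 RNAi replicate 3 (1.56 and 0.425 FPKM). On the opposite strand, msp-38 lies within dhs-12, which stood at 62.2 to 71.8 FPKM. The part of dhs-12 in the msp-38 values was not tested. The only msp gene to pass the filter on low values was msp-31 (gene ID 173849; II, 4916179 to 4916562). It stood at 4.47, 1.22 and 3.11 FPKM in the controls and at 3.71, 0.920 and 0.880 FPKM under vit-5 RNAi, and its highest library was control replicate 1. Without it, the msp sum in control replicate 1 was 1.72 FPKM, close to the 1.32 to 1.69 FPKM of the other low libraries. The gene lies inside aagr-2, an alpha-glucosidase-related gene on the same strand (4914494 to 4925248), and shares no exon with it. Levels of aagr-2 were 46.8, 21.0 and 27.0 FPKM in the controls and 73.9, 45.8 and 48.03 FPKM under vit-5 RNAi, and the part of aagr-2 RNA in the msp-31 values was not tested. The log2 fold change of msp-31 was -0.52 (SE 0.45, 95% interval -1.55 to 0.51), with a limma adjusted p of 0.464. Dropping 1 library moved it between -0.23 (control replicate 1 dropped) and -0.95 (vit-5 RNAi replicate 1 dropped).

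The order of the libraries was then read in every gene that reached 0.3 FPKM in at least 1 library, a count made after the pattern had been seen. Control replicate 3 and vit-5 RNAi replicate 1 were the 2 highest libraries in 24 of 27 such msp genes (88.9%). The same held for 5 of 9 nspd genes, 3 of 6 ssp genes and 0 of 13 spe and fer genes. Among all listed genes that are not members it held for 324 of 17693 (1.83%). With the level set at 0.1 FPKM the counts were 25 of 28 msp genes and 412 of 20696 other genes (1.99%), and at 1 FPKM they were 11 of 13 and 178 of 14349 (1.24%). Most of the msp genes read reached 0.3 FPKM in those 2 libraries only, so the filter itself favoured this order for them. The genes also share the libraries and, within msp, near-identical sequence, so the counts are a description.

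**Figure D2:**
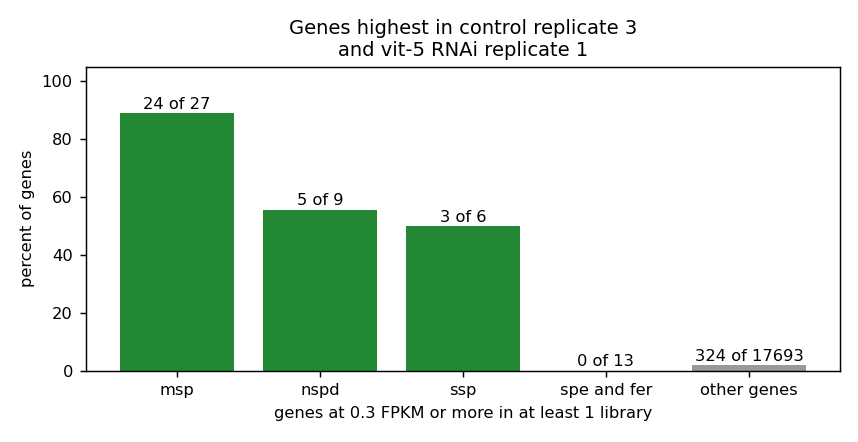
Percent of genes whose 2 highest libraries were control replicate 3 and vit-5 RNAi replicate 1, among genes at 0.3 FPKM or more in at least 1 library; the number above each bar gives the genes with that order and the genes read. The msp bar stands at 88.9% and that of genes outside the sperm families at 1.83%. Most msp genes reached 0.3 FPKM in those 2 libraries only, so the filter itself favoured this order for them.

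A stricter level was also read. Across the 45132 genes, 18 stood at 0.5 FPKM or more in both libraries and below 0.25 FPKM in each of the other 4. Of these, 11 were msp genes and 1 was nspd-1. Among the remaining 6 was F58A6.9, which the files describe as a major sperm protein, at 0.610 FPKM in control replicate 3 and 0.777 FPKM in vit-5 RNAi replicate 1 and at 0 elsewhere. Over all tested genes the 2 libraries were not each other's closest match. Their log2 values correlated at 0.948 across genes, while control replicate 3 reached 0.989 with control replicate 2 and vit-5 RNAi replicate 1 reached 0.984 with control replicate 1.

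Of the smaller families, nspd divided in 2. The gene nspd-7 (gene ID 177910; IV, 10268975 to 10269187) stood at 14.01, 14.3 and 19.5 FPKM in the controls and at 18.8, 20.4 and 12.5 FPKM under vit-5 RNAi, and the groups overlapped. The fitted log2 fold change of nspd-7 was 0.10 (SE 0.25, limma adjusted p 0.823). It became -0.25 when libraries were scaled by median of ratios, -0.17 when scaled by upper quartile, and -0.033 with vit-5 RNAi replicate 2 dropped. The other 9 nspd genes summed to 0.857, 0 and 1.73 FPKM in the controls and to 2.66, 0.485 and 0.383 FPKM under vit-5 RNAi. The 2 highest of these were nspd-1 and nspd-9. Levels of nspd-1 were 0, 0 and 0.544 FPKM in the controls and 0.601, 0 and 0 FPKM under vit-5 RNAi, the order seen for msp. Levels of nspd-9 were 0.188, 0 and 0 FPKM in the controls and 0.212, 0.385 and 0.216 FPKM under vit-5 RNAi, near the worth of a fragment or so. Inside the msp regions lie 5 of the nspd genes (nspd-2 to nspd-6) and sss-1, and all but nspd-5 among these had the msp order of libraries. The same regions hold ssp-10, which had that order but only between 5.55 and 6.92 FPKM. They also hold spe-29, ssp-32 and ssp-36, listed at 0 in every library. Any part of position in the order was not tested. The sss-1 values were 0, 0 and 0.254 FPKM in the controls and 0.0603, 0 and 0 FPKM under vit-5 RNAi.

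The ssp genes encode small proteins of sperm class P, and 3 of the 12 passed the filter. The highest sperm-named gene of all was ssp-37 (gene ID 173127; I, 12561040 to 12561560), at 94.1, 87.2 and 96.9 FPKM in the controls and 80.6, 92.4 and 68.5 FPKM under vit-5 RNAi. These libraries differed little and the groups overlapped, so ssp-37 did not follow the msp genes. For ssp-37 the log2 fold change was -0.21 (SE 0.16, limma adjusted p 0.415). It was -0.57 when scaled by median of ratios, -0.49 when scaled by upper quartile and -0.10 with vit-5 RNAi replicate 3 dropped. For ssp-10 (IV, 9850702 to 9851031) the values were 5.85, 5.57 and 6.82 FPKM in the controls and 6.92, 5.83 and 5.55 FPKM under vit-5 RNAi. That gene had a log2 fold change of 0.00 (SE 0.22, interval -0.49 to 0.50, limma adjusted p 0.993). For ssp-31 (I, 13219141 to 13219464) they were 1.85, 2.08 and 2.05 FPKM in the controls and 1.61, 2.75 and 1.61 FPKM under vit-5 RNAi, with a log2 fold change of -0.02 (SE 0.23, interval -0.54 to 0.50, limma adjusted p 0.957). The signs of ssp-10 and ssp-31 changed with the library left out. The other 9 ssp genes summed to at most 1.43 FPKM in any library, and 3 of them were listed at 0 throughout.

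The phosphatase genes gsp-3 and gsp-4 were at the limit of detection. For gsp-4 the values were 0.136, 0 and 0.206 FPKM in the controls and 0.421, 0.315 and 0.0892 FPKM under vit-5 RNAi. For gsp-3 they were 0, 0 and 0.153 FPKM in the controls and 0.279, 0 and 0 FPKM under vit-5 RNAi, above 0 only in control replicate 3 and vit-5 RNAi replicate 1. The group means of log2(FPKM + 1) differed by 0.19 for gsp-4 and 0.05 for gsp-3, with no test.

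**Figure D3:**
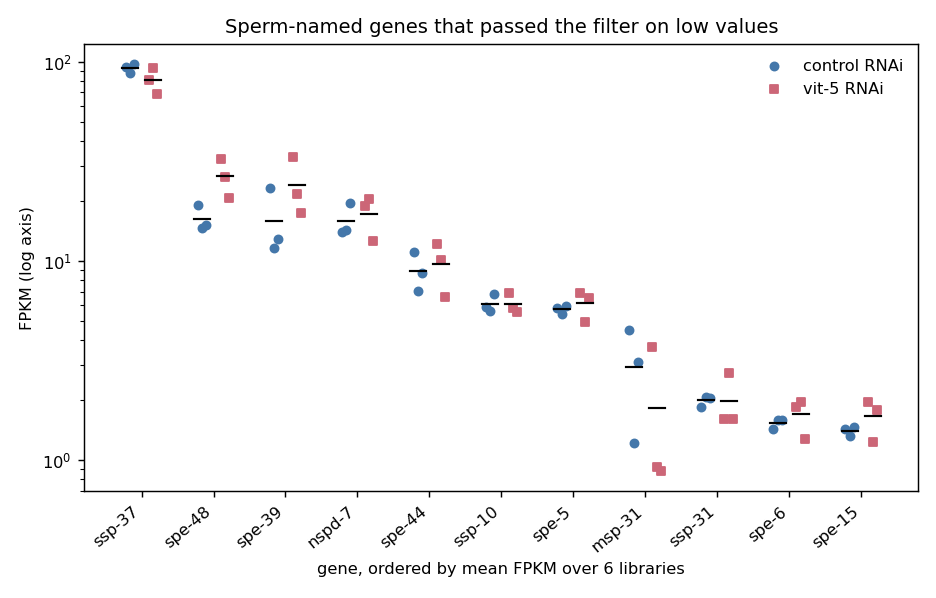
FPKM (log axis) of the 11 sperm-named genes that passed the filter on low values, with 1 point per library (blue circles control RNAi, red squares vit-5 RNAi, n = 3 each) and black lines at the group means. Only the points of spe-48 do not overlap between groups, and msp-31 has the widest spread.

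The spe and fer genes behaved apart from msp. Of 26, 6 passed the filter, and among these are genes whose products have work outside sperm. The gene spe-39 (gene ID 179071; V, 6785457 to 6787864) encodes a vesicle-trafficking protein that partners the machinery delivering cargo to lysosomes. It stood at 23.1, 11.7 and 12.9 FPKM in the controls and at 33.3, 21.7 and 17.4 FPKM under vit-5 RNAi, with 2 of the vit-5 RNAi libraries inside the control range. Its log2 fold change was 0.59 (SE 0.32, interval -0.16 to 1.33, limma adjusted p 0.269). It was 0.24 and 0.32 under the median-of-ratios and upper-quartile scalings, and 0.34 with vit-5 RNAi replicate 1 dropped.

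The gene spe-48 (gene ID 245997; I, 1950594 to 1958527) was the only tested member whose groups did not overlap. It stood at 19.1, 14.6 and 15.1 FPKM in the controls and at 32.5, 26.4 and 20.8 FPKM under vit-5 RNAi, the lowest vit-5 RNAi library being close to the highest control. The group means were 16.2 ± 2.46 and 26.6 ± 5.88 FPKM (SD, n = 3 each). The fit gave a log2 fold change of 0.66 (SE 0.23, interval 0.15 to 1.183), with an unadjusted limma p of 0.0181 and an adjusted p of 0.136, so it did not pass. Scaled by median of ratios its log2 fold change was 0.32 and scaled by upper quartile 0.39.

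The gene spe-44 (gene ID 182915; IV, 12452063 to 12454215) encodes a transcription factor that switches on sperm genes, msp among them. It stood at 11.1, 7.02 and 8.70 FPKM in the controls and at 12.2, 10.2 and 6.59 FPKM under vit-5 RNAi, highest in vit-5 RNAi replicate 1 and control replicate 1. Its log2 fold change was 0.08 (SE 0.28, interval -0.56 to 0.73, limma adjusted p 0.870), and the sign turned under both scalings (-0.24 and -0.17). Its level therefore did not follow that of the msp genes, whose sums in control replicates 1 and 3 were 6.198 and 32.1 FPKM.

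Lower still were spe-5, spe-6 and spe-15. The gene spe-5, which encodes a subunit of the vacuolar proton pump, stood at 5.78, 5.43 and 5.95 FPKM in the controls and at 6.91, 4.93 and 6.54 FPKM under vit-5 RNAi. The casein kinase gene spe-6 stood at 1.43, 1.59 and 1.59 FPKM in the controls and at 1.85, 1.96 and 1.28 FPKM under vit-5 RNAi. The myosin VI gene spe-15, which helps sort components between the budding spermatid and its residual body, stood at 1.44, 1.32 and 1.47 FPKM in the controls and at 1.96, 1.23 and 1.79 FPKM under vit-5 RNAi. In all 3 the groups overlapped, and the log2 fold change of spe-15 was 0.14 (SE 0.20, limma adjusted p 0.685), negative under both scalings (-0.0857 and -0.0387).

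The other 20 spe and fer genes, low because the filter set them apart, summed to 2.91, 1.75 and 2.38 FPKM in the controls and to 3.36, 2.17 and 2.92 FPKM under vit-5 RNAi, with no library apart from the rest. Within this set spe-41, which encodes a cation channel of the TRPC class needed for fertilisation, had the highest mean, at 0.629, 0.312 and 0.381 FPKM in the controls and 0.973, 0.900 and 0.183 FPKM under vit-5 RNAi. The presenilin gene spe-4 lay between 0.152 and 0.920 FPKM, and spe-11, whose product enters the egg with the sperm, between 0 and 0.447 FPKM. The palmitoyltransferase gene spe-10 did not exceed 0.266 FPKM, and spe-38, which encodes a membrane protein needed for fertilisation, did not exceed 0.545 FPKM. Exons of spe-38 and impt-1 overlap on the same strand. Levels of impt-1 were 16.2 to 32.9 FPKM, and its part in the spe-38 values was not tested.

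Still lower, the ferlin gene fer-1, needed for fusion of sperm organelles, reached at most 0.0436 FPKM. The gene spe-9, for a transmembrane protein with EGF repeats on the sperm surface, reached 0.123 FPKM. The gene spe-42, for a membrane protein that acts at fertilisation, reached 0.0809 FPKM and spe-8, for a tyrosine kinase of sperm activation, 0.0299 FPKM. Among the genes listed at 0 in every library were spe-12, spe-19 and spe-29, which act in sperm activation. The kelch-like gene spe-26 was higher in all 3 vit-5 RNAi libraries (0.374, 0.316 and 0.212 FPKM) than in the controls (0.202, 0.0561 and 0.0917 FPKM). The same held for the untested genes spe-11 and nspd-9, and for 30.8% of all tested genes. The gene spe-26 lies opposite to and within R10H10.3, which stood at 50.5, 27.3 and 24.2 FPKM in the controls and at 104.7, 67.2 and 78.0 FPKM under vit-5 RNAi, and the part of that gene in the spe-26 values was not tested.

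With group as the only term, the comparison of vit-5 RNAi with control therefore called no sperm gene. Of the 11 tested, 0 passed a limma adjusted p of 0.05, as did 0 of all 12908 tested genes (0%). With the replicate number as a block, spe-48 (limma adjusted p 0.0182) and spe-39 (0.0281) passed. This was a smaller share than over all tested genes, as given below with the counts. With unadjusted limma p-values 1 member was higher at a threshold of 0.05 (spe-48) and 0 were lower, where 26.2% of all tested genes were higher and 0.906% lower. Under both other scalings these counts turned to 0 higher and 1 lower (ssp-37). Groups that did not overlap were seen in 1 of the 11 as higher and in 0 as lower, beside 30.8% and 3.15% of all tested genes. Across every listed member, msp genes had a median difference of -0.04 in log2(FPKM + 1), with 8 above 0, 20 below and 3 at 0. The spe and fer genes had a median of 0.00, with 13 above 0, 8 below and 5 at 0. The same median was 0.00 over all listed genes, of which 22798 had equal group means. Over tested genes alone it was 0.34, beside 0.11 over the 6 tested spe and fer genes. The msp median turned to 0.19 with control replicate 3 dropped and stood at -0.30 with vit-5 RNAi replicate 1 dropped.

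In a list of 22 other genes of sperm formation or function 18 were listed under the names used, and 2 passed the filter, zipt-7.1 and cpb-1. The zinc transporter gene zipt-7.1, needed for sperm activation, stood at 36.1, 32.0 and 33.9 FPKM in the controls and at 32.7, 31.6 and 27.2 FPKM under vit-5 RNAi. The gene cpb-1, for an RNA-binding protein needed in spermatocytes, stood at 26.9, 14.5 and 17.8 FPKM in the controls and at 24.0, 24.2 and 12.9 FPKM under vit-5 RNAi. Neither passed, and both overlapped between groups. The gene msd-2, for an MSP-domain protein, was listed at 0, 0 and 0.2998 FPKM in the controls and at 0.410, 0 and 0 FPKM under vit-5 RNAi, the order of the msp genes. The Argonaute genes alg-3 and alg-4 of the male germline did not exceed 0.0168 FPKM, and the sperm toxin gene peel-1 was listed at 0 throughout.

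The genes that decide between sperm and oocyte were mostly well above the filter. Of 18, 15 were tested, 0 passed the adjusted threshold and 1, fem-3, had an unadjusted limma p under 0.05, where 26.2% of all tested genes were higher and 0.906% lower. The gene fem-3 promotes the sperm fate and stood at 16.7, 9.84 and 11.7 FPKM in the controls and at 24.9, 17.6 and 17.5 FPKM under vit-5 RNAi (log2 fold change 0.62, SE 0.26, limma adjusted p 0.169). The gene fem-2, which also promotes the sperm fate, was lower in all 3 vit-5 RNAi libraries, as were 3.15% of all tested genes. It stood at 105.8, 95.3 and 93.2 FPKM in the controls and at 90.7, 84.1 and 65.3 FPKM under vit-5 RNAi (log2 fold change -0.30, SE 0.17, limma adjusted p 0.280). The gene fog-3, a terminal regulator required for sperm fate, stood at 0.203, 0.0996 and 0.494 FPKM in the controls and at 0.472, 0.102 and 0.256 FPKM under vit-5 RNAi, highest in control replicate 3 and vit-5 RNAi replicate 1.

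Genes of the response to MSP in oocytes and gonadal sheath cells numbered 20, all tested. None passed the adjusted threshold with limma, and 4 were higher at an unadjusted limma p under 0.05, again beside 26.2% of all tested genes. These were acy-4, the adenylate cyclase of the sheath, itr-1 and plc-3 of inositol phosphate signalling, and the EGF receptor gene let-23. Their control means were 0.726 to 1.35 FPKM and their vit-5 RNAi means 1.77 to 3.12 FPKM, with log2 fold changes of 0.67 to 0.83 (limma adjusted p 0.122 to 0.124). The median over the 20 genes was 0.38, beside 0.34 over all tested genes. The MSP receptor gene vab-1 stood at 27.8, 16.5 and 18.2 FPKM in the controls and at 33.8, 26.5 and 21.0 FPKM under vit-5 RNAi.

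**Figure D4:**
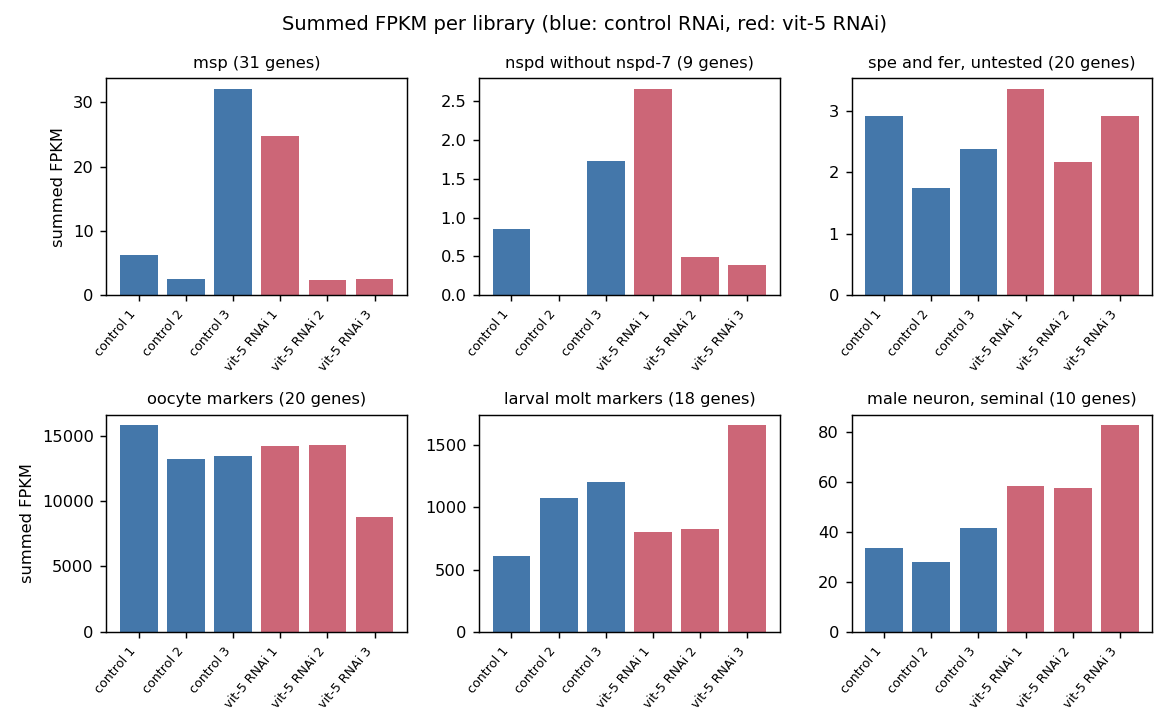
Summed FPKM per library (bars from 0; blue control RNAi, red vit-5 RNAi) of msp genes, the lower nspd genes, untested spe and fer genes and 3 marker lists, each on its own axis. The msp sum is high in control replicate 3 (32.1 FPKM) and vit-5 RNAi replicate 1 (24.8 FPKM), while larval molt markers are highest in vit-5 RNAi replicate 3 (1659 FPKM).

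Markers of other tissues and stages did not share the order of the msp sums. Larval molt markers, 18 genes, summed to 612, 1077 and 1206 FPKM in the controls and to 805, 823 and 1659 FPKM under vit-5 RNAi. Control replicate 3 was therefore high and vit-5 RNAi replicate 1 low within its group. The genes of this list did not all move together. The cuticle collagen gene rol-6 stood at 3.41, 106.8 and 117 FPKM in the controls and at 3.15, 27.8 and 202 FPKM under vit-5 RNAi. The highest by mean, dpy-17, stood at 320, 99.6 and 102 FPKM in the controls and 426, 340 and 89.1 FPKM under vit-5 RNAi. Of 10 genes of male neurons and seminal fluid, 3 (cwp-2, cwp-3 and lov-1) were listed at 0 throughout, and pkd-2, a defining gene of male sensory neurons, did not exceed 0.07 FPKM. Of the others, try-5, cwp-4 and swm-1 had values in every library. The seminal fluid protease gene try-5 stood at 0.978, 0.817 and 0.897 FPKM in the controls and at 2.05, 0.768 and 1.56 FPKM under vit-5 RNAi. The gene cwp-4 stood at 0.616, 0.507 and 0.774 FPKM in the controls and at 1.29, 1.44 and 3.13 FPKM under vit-5 RNAi (log2 fold change 0.81, SE 0.26, limma adjusted p 0.131). The kinesin gene klp-6 lay between 0 and 0.126 FPKM in the controls and between 0.156 and 0.254 FPKM under vit-5 RNAi. The sum over the 10 genes was 33.7, 27.8 and 41.5 FPKM in the controls and 58.3, 57.6 and 82.8 FPKM under vit-5 RNAi, nearly all of it from swm-1, a protease inhibitor that restrains sperm activation in males. The gene swm-1 stood at 31.8, 26.1 and 39.7 FPKM in the controls and at 54.7, 55.2 and 77.4 FPKM under vit-5 RNAi (log2 fold change 0.92, SE 0.22, limma adjusted p 0.122). The part of larvae, males or other animals in the msp values was not tested.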

How the data were processed

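Total RNA of whole worms was sequenced on an Illumina NovaSeq from NEBNext Ultra libraries, per the labels' protocols. HTSeq 0.6.1, DESeq 1.18.0, TopHat, TopHat2 2.0.12, Bowtie2 2.2.3 and the build WBcel235 appear, without roles, in the submitters' processing notes. The files hold FPKM made by the authors, per the file headers. Which program made them, and whether counting used strand, is not given, so genes that overlap on opposite strands cannot be told apart. Values of 0.0001 or less were read as 0. Coordinates are those of RefSeq and Ensembl on WBcel235, in which all 82 names matched.

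The 12908 genes reaching 1 FPKM in 3 or more libraries were tested as log2(FPKM + 1) in limma 3.58.1 under R 4.3.3 with a mean-variance trend and group as the only term. P-values are 2-sided, adjusted by Benjamini and Hochberg over all tested genes with a threshold of 0.05; differences are vit-5 RNAi over control and understate low genes. The fit was also run on simulated data with independent noise for each gene and no pattern shared between libraries. That run therefore does not cover such patterns, and nothing here rests on it. Rough depths came from FPKM times length of genes with 1 transcript, but within a tolerance of 0.1 no more than 34.2% to 38.5% of them came out whole (20% by chance). Counts were thus not recovered, and no counting interval is given. Libraries were not copies, since at most 0.0697% of tested values were equal in any pair. Named genes were the 3 highest of each family, a set list of spe genes (some items of which are not reported here), gsp-3, gsp-4 and the 5 smallest p. Other genes named, and the genes named from the other lists, were chosen after their values were seen. Members, lists and alternatives were chosen with earlier results of these data known. Alternatives covered the pseudocount, filter, scaling, trend, replicate number and each library left out. Figures were drawn with matplotlib 3.10.9.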

Additional observations from a re-analysis of the deposited data

How the results depend on the processing

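Under every alternative run except the replicate block, 0 sperm genes passed the limma adjusted p of 0.05. Depth limits the msp sum to about 15 to 49 fragments in the 4 libraries low in msp. Without the filter 82 were fitted, together with 22798 genes of equal group means, so those p-values are not dependable. At an unadjusted p under 0.05, scaling by median of ratios or by upper quartile each gave 0 members higher and 1 lower (ssp-37), and leaving out 1 library gave 0 to 2 higher (2 when either the control library 1 or the vit-5 RNAi library 3 was dropped) and 0 to 1 lower (msp-31, without vit-5 RNAi replicate 1); the cause was not tested. With both libraries high in msp left out, chosen after the data were seen, there were 0 higher and 1 lower. In that fit 84 genes in all passed the adjusted threshold, and vit-5 stood at -5.67 (limma adjusted p 1.016e-18). Only 2 libraries were left in each group, picked from these same data, so the p-values and counts of that fit are not dependable.

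Deviations from the group mean correlated at 0.753, 0.034 and 0.681 between samples of equal replicate number 1, 2 and 3. For numbers 1 and 3 this was the highest value of that control replicate. Control replicate 2 instead correlated best with vit-5 RNAi replicate 3 (0.348). The labels do not say whether equal numbers were paired, and the check does not settle it, so the model without pairing may be the wrong one. With the number as a replicate block, 3806 of all 12908 tested genes passed. Among them were 2 of the 11 tested members, spe-48 (limma adjusted p 0.0182) and spe-39 (0.0281), and 2 members were higher at an unadjusted p under 0.05. Vit-5 then passed at a log2 fold change of -5.03. So did 1 of 15 tested sex determination, 4 of 20 MSP response, 2 of 20 oocyte, 1 of 17 larval molt and 2 of 2 male list genes. The share passing was below that over all tested genes for the members and for each of these lists but the male one.

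Leaving out 1 library gave 0 to 5 genes past the adjusted threshold (4 without vit-5 RNAi replicate 1, 5 without replicate 3) and log2 fold changes of vit-5 from -5.61 to -4.46, with limma adjusted p-values of 0.000558 and 0.00721 without those same libraries. Signs turned for spe-15 (-0.0857 and -0.0387), spe-44 (-0.24 and -0.17), nspd-7 (-0.25 and -0.17) and ssp-10 (-0.31 and -0.24) under scaling by median of ratios and by upper quartile, in that order. Over single libraries left out the ranges were -0.0903 to 0.31 for spe-44, -0.033 to 0.30 for nspd-7, -0.0779 to 0.0777 for ssp-10 and -0.20 to 0.0649 for ssp-31. With both libraries high in msp left out, spe-44 was at -0.10, ssp-10 at -0.0039 and ssp-31 at 0.0771. The directions of spe-48, spe-39, ssp-37 and msp-31 held in all alternatives run.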

Other observations

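Several genes outside the naming rule belong to the same protein families. The files describe 53 further genes as major sperm proteins, and 24 of them reached 0.3 FPKM in at least 1 library. Of those 24, 4 had control replicate 3 and vit-5 RNAi replicate 1 as their 2 highest libraries. The same order held for 324 of 17693 listed genes that are not members (1.83%). It also held for 24 of 27 msp genes, most of which reached 0.3 FPKM in those 2 libraries only. The highest of the 53 further genes was vpr-1, an MSP-domain protein of the VAP class that works in many cells. It stood at 142, 96.7 and 111 FPKM in the controls and 184, 149 and 138 FPKM under vit-5 RNAi. It was followed by F59A6.12, at 29.9, 21.3 and 24.4 FPKM in the controls and 31.4, 29.4 and 22.8 FPKM under vit-5 RNAi.

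A further 10 genes carry a spe or ssp symbol in the current RefSeq table but an older name in the files. The highest was R74.10, now ssp-28, at 7.59, 12.4 and 13.3 FPKM in the controls and 5.69, 8.11 and 22.3 FPKM under vit-5 RNAi. F32A11.3, now spe-18, was lower in all 3 vit-5 RNAi libraries (0.999, 1.08 and 0.190 FPKM) than in the controls (1.47, 1.24 and 1.42 FPKM), as were 3.15% of all tested genes. Its log2 fold change was -0.48 (SE 0.255, limma adjusted p 0.255), so it did not pass. F40F11.4, now spe-36, stood at 0.297, 0.201 and 1.202 FPKM in the controls and 1.40, 0.383 and 0.645 FPKM under vit-5 RNAi, the order of the msp genes.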
